A study of Rattus norvegicus with 32 samples.

Results

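A set of 9 activity-induced immediate early genes were followed across 4 brain regions of rats given methamphetamine (METH) or saline: Arc, Npas4, Nr4a1, Nr4a2, Nr4a3, Homer1, Ier2, Dusp1 and Btg2. The members were chosen by gene name, and all 9 were found among the 28914 genes of the count files. Adult male Sprague-Dawley rats, for which the labels name no genetic change, received (+)-methamphetamine hydrochloride at 10 mg/kg or saline in 4 intraperitoneal injections given 2 h apart, and were dissected 24 h later. RNA-seq libraries came from the subventricular zone (SVZ) beside the ventricle, from the striatal nucleus accumbens (NAc) and from 2 hippocampal regions, dentate gyrus (DG) and Ammon's horn (CA), with 4 saline (Sal) and 4 METH libraries per region and 32 in all. The NAc and SVZ were taken with a 1 mm puncher from 2 mm slices, so a library can hold tissue from around its target. The labels do not say which libraries came from the same rat, so the p-values measure the spread between these libraries.

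Immediate early genes are transcribed within minutes of neuronal firing from factors that are already present in the cell, and their transcripts are short-lived. Npas4 is a neuronal transcription factor of the bHLH-PAS family that responds to calcium entry, and Nr4a1, Nr4a2 and Nr4a3 are orphan nuclear receptors that act as transcription factors. Arc and Homer1 encode synaptic proteins. Arc takes part in the removal of AMPA receptors from the synapse, and Homer1 gives long scaffold isoforms and a short isoform, Homer1a, that is the one induced by activity. Ier2 is a nuclear protein of the early growth response, Dusp1 is a phosphatase that switches off MAP kinases, and Btg2 is an antiproliferative protein that acts with the mRNA deadenylation complex. Stimulant drugs are known to induce these genes acutely, whereas the tissue studied here was taken a day later.

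Many genes of this kind are controlled by CREB, which binds the cAMP response element, and the start regions were therefore searched for its core, TGACG, on both strands. The windows run from 250 bases before to 50 bases after the gene start in RefSeq annotation of the GRCr8 build, which is a later build than the rn6 of the counts. Windows were found for 7 of the 9 genes, and not for Arc and Nr4a3. The core was present in 5 of these 7, Nr4a1, Nr4a2, Ier2, Dusp1 and Btg2, beside 21.2% of the 33469 windows of the same length. In Ier2, Dusp1 and Btg2, a core on each strand overlapped to form the palindromic full element, and Nr4a1 held 4 separate cores. The windows of Npas4 and Homer1 held no core. AAGGTCA, the core of the element bound by Nr4a proteins as monomers, was in 0 of the 7 windows and in 4.61% of all windows, and the CArG box of serum response factor was in 0 of the 7 and in 1.64% of all. These letters describe the sequence and do not show binding. The windows with several cores are shown 5′ to 3′ on the strand of the gene, with TGACG on either strand in capitals (read on the opposite strand it appears as CGTCA).
Nr4a1, GRCr8 chr7:134259888-134260187, plus strand: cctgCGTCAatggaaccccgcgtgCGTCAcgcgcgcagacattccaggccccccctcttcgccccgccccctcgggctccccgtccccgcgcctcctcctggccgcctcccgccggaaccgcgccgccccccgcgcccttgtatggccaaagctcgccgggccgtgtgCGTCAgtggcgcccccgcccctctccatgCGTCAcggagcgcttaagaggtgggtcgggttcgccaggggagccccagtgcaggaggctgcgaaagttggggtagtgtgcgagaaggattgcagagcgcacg
Ier2, GRCr8 chr19:40399123-40399422, plus strand: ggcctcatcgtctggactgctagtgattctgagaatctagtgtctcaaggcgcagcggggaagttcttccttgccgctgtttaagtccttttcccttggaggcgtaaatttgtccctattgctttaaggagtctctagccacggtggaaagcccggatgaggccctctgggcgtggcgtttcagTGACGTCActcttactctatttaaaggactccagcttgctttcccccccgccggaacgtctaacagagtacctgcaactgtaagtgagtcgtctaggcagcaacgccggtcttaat
Dusp1, GRCr8 chr10:17184603-17184902, plus strand: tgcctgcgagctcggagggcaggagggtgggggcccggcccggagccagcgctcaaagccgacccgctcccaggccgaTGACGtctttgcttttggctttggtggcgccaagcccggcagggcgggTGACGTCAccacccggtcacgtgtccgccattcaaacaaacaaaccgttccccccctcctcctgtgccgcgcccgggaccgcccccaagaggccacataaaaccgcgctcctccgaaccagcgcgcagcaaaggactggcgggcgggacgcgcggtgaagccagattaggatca
Btg2, GRCr8 chr13:48087641-48087940, minus strand: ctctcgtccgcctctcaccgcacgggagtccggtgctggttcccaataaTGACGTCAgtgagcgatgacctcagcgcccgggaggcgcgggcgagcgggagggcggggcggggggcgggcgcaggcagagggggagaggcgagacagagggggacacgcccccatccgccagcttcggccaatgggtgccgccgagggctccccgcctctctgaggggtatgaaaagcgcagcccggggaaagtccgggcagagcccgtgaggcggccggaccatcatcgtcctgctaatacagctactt

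In the rn6 annotation of the count files, the transcription factor genes lay at chr1:220261008-220265772 (Npas4), chr7:142905758-142920216 (Nr4a1), chr3:43111240-43119159 (Nr4a2) and chr5:63781801-63821637 (Nr4a3). Arc lay at chr7:115907097-115910541 and Homer1 at chr2:22909569-23009678. Ier2 lay at chr19:25774143-25775659, Dusp1 at chr10:16970626-16973418 and Btg2 at chr13:50913180-50916982. Counts were summed over all exons of a gene, and no other annotated gene shared exon bases with any of the 9. Homer1a and the long Homer1 isoforms were therefore not counted apart. The annotated exons of Homer1 held 2193 bases in 10 blocks, and whether they cover the Homer1a transcript in full was not checked.

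The libraries held between 11094002 and 21869773 counts, with the highest group medians in the SVZ, and 1 read was worth 0.0442 to 0.0934 CPM (counts per 1000000, relative to upper-quartile library sizes). The marker check of the region labels was mixed. Summed markers of striatal medium spiny neurons reached 1710 to 9480 CPM in 7 NAc libraries but 281 CPM in NAc METH 3, and 182 to 756 CPM in the DG and CA libraries other than DG Sal 3, which had 2050 CPM. Markers of dentate granule neurons did not set the DG (106 to 561 CPM) apart from the CA (137 to 608 CPM), and markers of CA pyramidal neurons did not either, with sums of 291 to 1470 CPM in the DG and 631 to 924 CPM in the CA. In the SVZ, the libraries Sal 1, METH 2 and METH 4 had thalamic marker sums of 2050, 1850 and 1240 CPM, beside 93.2 to 507 CPM in the other SVZ libraries. Choroid plexus markers passed 1000 CPM in DG Sal 4, DG METH 3, CA Sal 2 and SVZ METH 3. The file headers carry library numbers that agree between the NAc and CA by label. In the DG they do not. Numbers 20 and 21 are on saline DG libraries (Sal 1 and 2) but on METH libraries elsewhere, and 14 and 15 are on METH DG libraries (METH 1 and 2) but on saline libraries elsewhere. The labels were kept as given, and DG results were also computed without these 4 libraries. The 4 SVZ METH libraries carry 2 numbers between them (1669 and 1670), so the SVZ tests treat as separate 4 libraries that may not come from 4 rats. The headers of SVZ Sal 1, Sal 2, METH 2 and METH 4, which include the 3 thalamus-rich libraries, also hold the word EXTRA, whose meaning is not given in the sources used here.

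All 9 genes were measured in every library. Per kilobase of exon, the scale on which genes can be compared, Homer1 was the most abundant (mean 48.2 CPM per kb over 32 libraries), followed by Arc (27.9), Nr4a1 (16.5), Nr4a2 (11.8), Nr4a3 (11.4), Dusp1 (10.4), Btg2 (4.24), Npas4 (3.39) and Ier2 (3.21). By the fold between its highest and lowest library, Npas4 had the widest range. It ran from 0.372 CPM (6 reads) in DG METH 1 to 49.9 CPM in SVZ Sal 4, beside 2.79 to 232 CPM for Nr4a2 and 32.9 to 201 CPM for Homer1. The lowest count of any gene other than Npas4 was 23 reads, for Ier2.

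**Figure D1:**
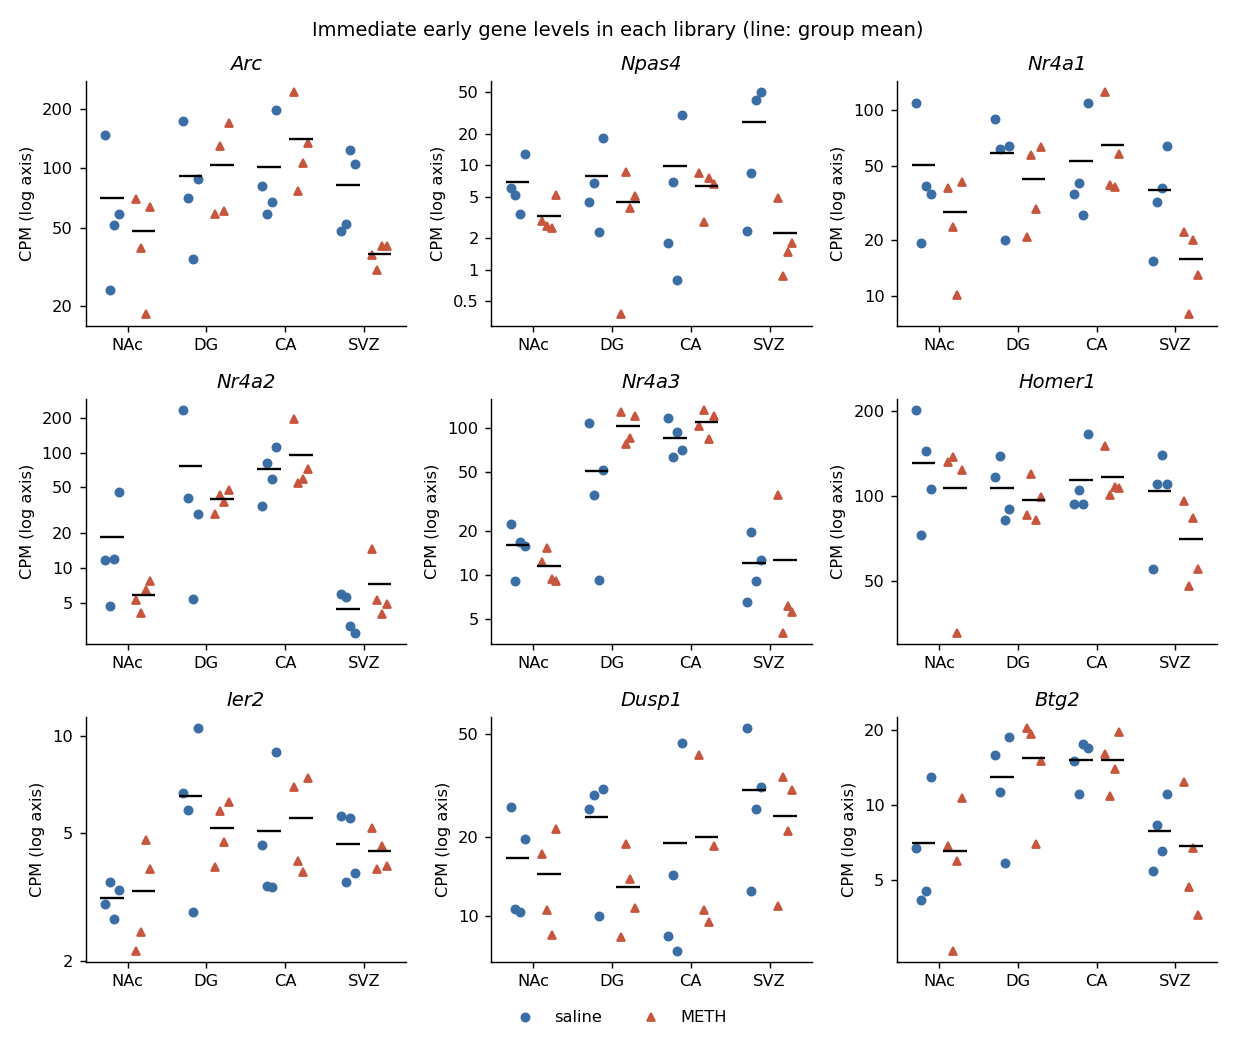
Level of each gene in every library, in CPM on a log axis, by region (NAc, DG, CA and SVZ). Circles are saline and triangles METH libraries, with 4 of each per region, and the black line is the group mean. Nr4a2 and Nr4a3 sat higher in the hippocampal regions than in the NAc and SVZ, and Arc in the SVZ had every METH library (30.4 to 40.6 CPM) below every saline library (48.3 to 124 CPM).

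Saline libraries were compared first, to see where these genes were expressed without the drug. The SVZ headers carry numbers 1667 to 1672 and none of the name parts read below as runs. The headers of the other regions carry numbers 14 to 25 and such parts. A difference between the SVZ and another region therefore cannot be told apart from one between these sets of libraries. Nr4a2 and Nr4a3, receptors of the same family, had their highest means in the DG and CA, the hippocampal regions. Nr4a3 was at 116, 62.8, 92.6 and 70.0 CPM in CA Sal 1 to 4 and at 6.59, 19.6, 9.10 and 12.7 CPM in SVZ Sal 1 to 4. In the NAc it was at 22.0, 9.06, 16.7 and 15.8 CPM, and in the DG at 108, 35.1, 9.28 and 51.6 CPM. The CA values did not overlap those of the SVZ or of the NAc (the latter true of 1 of the 9 genes, beside 11.1% of all genes lower in the NAc), while the DG spanned the whole range, with its lowest value in Sal 3, the library rich in striatal markers.

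Nr4a3 was higher in the CA than in the SVZ by 2.78 ± 0.56 (log2 fold change ± SE, FDR = 0.0107) and lower in the NAc than in the CA (log2 fold change -2.40 ± 0.55, FDR = 0.0326). Nr4a2 was at 34.7, 80.8, 59.6 and 111 CPM in the saline CA libraries, against 6.03, 5.71, 3.19 and 2.79 CPM in the SVZ, again without overlap. The difference was 3.97 ± 0.96 (log2, FDR = 0.0195). Between the DG and SVZ it was 4.06 ± 0.96 (FDR = 0.0907), with overlap. In the DG, Nr4a2 was at 232, 40.1, 5.43 and 29.7 CPM, and in the NAc at 11.8, 4.76, 12.0 and 46.0 CPM, so both groups held libraries that overlapped those of their neighbours.

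With the call of an FDR under 0.01 and a fold change over 2, 0 of the 9 genes passed in any of the 6 pairs of regions, beside 0.811% of 15537 genes between the CA and SVZ and 0.0193% between the DG and SVZ. In the NAc against DG, NAc against CA, NAc against SVZ and DG against CA, 0.0% of genes passed. An unadjusted p under 0.05 was reached by 3 of the 9 genes between the CA and SVZ (Nr4a3, Nr4a2 and Btg2), all higher in the CA, beside 12.3% of all genes in that direction. The same 3 genes had separate groups in that direction, beside 11.3% of all genes. At the same unadjusted p, 4 of the 9 were lower in the NAc than in the DG (Nr4a2, Nr4a3, Ier2 and Btg2), beside 6.29% of all genes. In the NAc against CA, 3 were lower (Nr4a2, Nr4a3 and Btg2), beside 10.6%. In the DG against SVZ, 2 were higher (Nr4a2 and Nr4a3), beside 7.87%. In the NAc against SVZ, 1 was higher (Nr4a2), beside 4.13%. Between the DG and CA, 0 of the 9 reached it, beside 8.89%. In the test of any difference among the 4 regions, Nr4a3 (FDR = 0.0244) and Nr4a2 (FDR = 0.0491) ranked ahead of Btg2 (FDR = 0.171), and 3 of 9 genes had an unadjusted p under 0.05, beside 26.7% of all genes.

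The FDR values of Nr4a2 and Nr4a3 moved with the libraries in the fit. Leaving out DG Sal 3, which shares the fit, gave FDR = 0.00227 for Nr4a3 and 0.0071 for Nr4a2 between the CA and SVZ, and FDR = 0.0057 for Nr4a3 between the NAc and CA. Same-numbered saline libraries of the NAc and CA deviated together only weakly (r 0.11 to 0.25). With the replicate number as a block, Nr4a3 in the NAc against the CA had a log2 fold change of -2.41 and FDR = 0.0418.

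The regional order of the other genes was less clear against their spread. Arc was at 101 ± 64.8 CPM (mean ± SD, n = 4) in the saline CA, 91.9 ± 58.7 in the DG, 82.3 ± 38.0 in the SVZ and 70.7 ± 53.7 in the NAc. Homer1 ran from 131 ± 55.1 CPM in the NAc to 104 ± 35.5 CPM in the SVZ. Npas4 had its highest saline mean in the SVZ (25.7 ± 23.8 CPM) and its lowest in the NAc (6.86 ± 4.11 CPM), and Nr4a1 ran from 58.7 ± 28.8 CPM in the DG to 37.1 ± 19.9 CPM in the SVZ. Of the remaining genes, Dusp1 was highest in the SVZ (30.5 ± 16.7 CPM) and lowest in the NAc (16.7 ± 7.67 CPM), Btg2 ran from 15.2 ± 2.89 CPM in the CA to 7.09 ± 4.06 CPM in the NAc, and Ier2 from 6.51 ± 3.20 CPM in the DG to 3.14 ± 0.362 CPM in the NAc. Over the 9 genes, 27 pairs of regions were neighbours in the order of saline means. An unadjusted p under 0.05 separated 3 of them (DG from NAc for Nr4a3, CA from NAc and NAc from SVZ for Nr4a2), beside 11.6%, 24.1% and 12.6% of all genes between the NAc and the DG, CA and SVZ. The lowest FDR among all 27 was 0.198.

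The effect of METH was then examined within each region. No gene of the genome passed an FDR under 0.01 with a fold change over 1.5 in edgeR's quasi-likelihood test (0.0% of 14823, 14885, 14626 and 15554 genes in the NAc, DG, CA and SVZ), and 0 of the 9 passed in any region. DESeq2 called 3, 175, 10 and 2 genes in the same order, none of them among the 9. The values below are therefore read at an unadjusted p under 0.05, which 3.41%, 12.8%, 7.16% and 2.57% of genes reached in the NAc, DG, CA and SVZ.

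**Figure D2:**
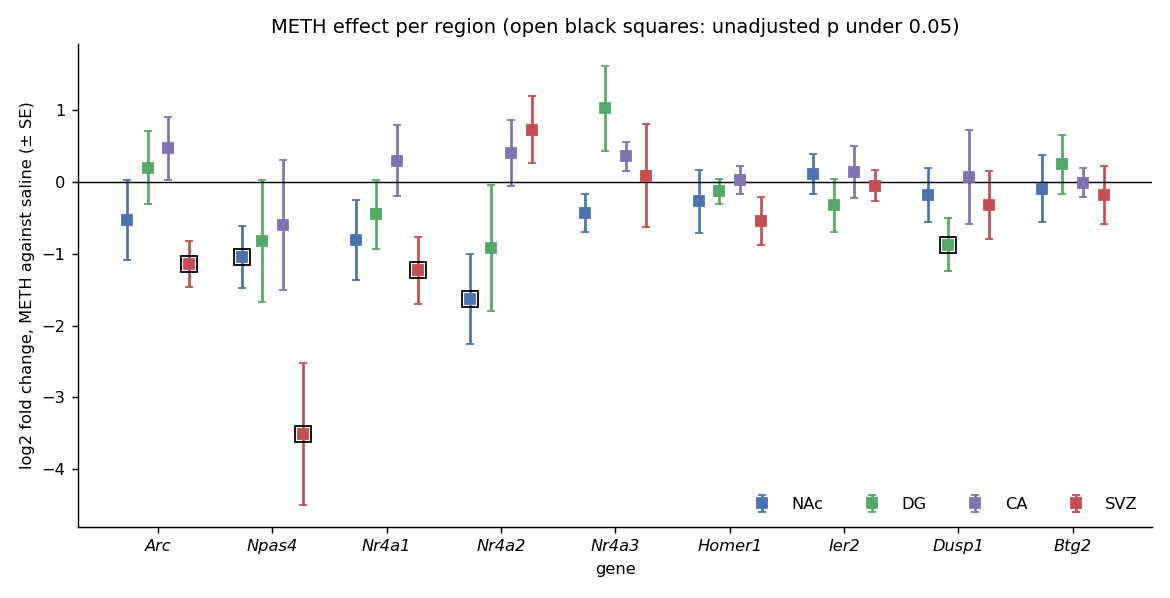
Log2 fold change of METH against saline with its SE for each gene and region, from 4 METH and 4 saline libraries per region. Open black squares mark an unadjusted p under 0.05, namely Npas4 and Nr4a2 in the NAc, Dusp1 in the DG, and Arc, Npas4 and Nr4a1 in the SVZ, all below 0.

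In the SVZ, 3 of the 9 genes had an unadjusted p under 0.05 (Arc, Npas4 and Nr4a1), all lower in METH, beside 1.4% of all genes in that direction. Arc was at 48.3, 52.0, 124 and 105 CPM in Sal 1 to 4 and at 36.2, 30.4, 40.2 and 40.6 CPM in METH 1 to 4. Every METH library lay below every saline library, which held for 1 of the 9 genes and for 0.997% of all genes tested. The log2 fold change of Arc was -1.14 ± 0.32 (FDR = 0.980).

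Npas4 was at 2.35, 8.33, 42.3 and 49.9 CPM in saline and at 4.80, 0.876, 1.46 and 1.81 CPM in METH. Sal 3 and Sal 4 stood far above the rest, and Sal 1 lay within the METH range. Its log2 fold change was -3.51 ± 0.99 (FDR = 0.980), and it passed the call with 4 RUVr factors (factors of unwanted variation estimated from residuals) in 1 fit of all 32 libraries (log2 fold change -3.36, FDR = 0.00733). That setting also called many other genes in the SVZ, beside 0.0% of genes in the main fit, and its count is given in the closing section. Nr4a1 was at 15.4, 31.9, 37.8 and 63.4 CPM in saline and at 22.0, 7.94, 19.9 and 12.9 CPM in METH, with Sal 1 again inside the METH range (log2 fold change -1.23 ± 0.47, FDR = 0.980).

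Of the other 6 genes, Homer1 had a log2 fold change of -0.54 ± 0.33 in the SVZ (FDR = 0.980), and Dusp1, Btg2 and Ier2 were closer to 0 (-0.32, -0.18 and -0.05). Over 14 alternatives, the log2 fold change of Homer1 lay between -0.68 and -0.40. Its lowest FDR among them was 0.00503, although it did not pass the call under any. Nr4a2 (0.73 ± 0.47) and Nr4a3 (0.09 ± 0.72) had their highest SVZ values in a single library, METH 1, at 14.7 and 34.7 CPM. The other SVZ METH libraries held 4.07 to 5.36 CPM of Nr4a2 and 4.07 to 6.15 CPM of Nr4a3.

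Striatal markers moved with some of these genes in the SVZ, but not with all. All 9 genes of the striatal list had a log2 fold change below 0 (median -1.25, 0 of 9 at p under 0.05), and their sum was 342, 3640, 6600 and 4210 CPM in Sal 1 to 4 and 1770, 243, 3190 and 909 CPM in METH 1 to 4. The groups overlapped, and none of the 9 markers was at 0. Over the 8 SVZ libraries, log2 striatal sums and log2 levels had Pearson r = 0.94 (Spearman rho = 0.98) for Homer1, 0.86 (0.93) for Nr4a1, 0.74 (0.81) for Npas4, 0.69 (0.79) for Arc and -0.53 (-0.45) for Dusp1. Without the 2 libraries farthest from the median striatal sum, r was 0.91 for Homer1, 0.80 for Nr4a1, 0.74 for Npas4, 0.77 for Arc and 0.05 for Dusp1. Nr4a2 was lowest in Sal 4 and Sal 3 (2.79 and 3.19 CPM), the libraries with the highest striatal sums. The marker sums and the gene levels come from the same libraries. A smaller share of striatal neurons and less RNA per neuron cannot be told apart in bulk tissue. Pan-neuronal markers had a median log2 fold change of -0.07 in the SVZ (2 of 6 above 0 and 4 below). Their sums were 3590 to 4550 CPM in saline and 3360 to 4120 CPM in METH. All 6 thalamic markers were above 0 (median 0.61). The part of the tissue mix in the result was not tested.

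Without the 3 libraries of high thalamic sums, which left 3 saline and 2 METH libraries, the log2 fold changes were -1.27 for Arc, -3.42 for Npas4 and -1.07 for Nr4a1, each with FDR = 0.662 and an unadjusted p still under 0.05. Oligodendrocyte markers also moved, with all 7 above 0 (median log2 fold change 0.83, 0 of 7 at p under 0.05) and sums of 4000 to 19500 CPM in saline and 8810 to 28200 CPM in METH. Their part in the result was not tested. Leaving out each library in turn kept an unadjusted p under 0.05 for Arc (log2 fold change -1.34 to -0.89) and Npas4 (-4.20 to -2.95) in 8 of 8 fits, but for Nr4a1 (-1.49 to -0.82) in 4 of 8. With METH libraries of the same number summed, which left 2 METH against 4 saline libraries, the log2 fold changes were -1.16 for Arc, -3.54 for Npas4 and -1.25 for Nr4a1, each with FDR = 1.0, and the unadjusted p was under 0.05 for Arc and Npas4 only.

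The saline SVZ values also split by the word EXTRA in the headers. Npas4 was at 2.35 and 8.33 CPM in the saline libraries with the word and at 42.3 and 49.9 CPM in those without it, and Arc at 48.3 and 52.0 CPM against 124 and 105 CPM. Within the 4 libraries with the word (2 saline and 2 METH), the log2 fold changes were -0.49 for Arc, -1.98 for Npas4 and -1.18 for Nr4a1, and none had an unadjusted p under 0.05. Within the 4 libraries without it they were -1.55, -3.88 and -1.26, each with an unadjusted p under 0.05. With the word as a covariate they were -1.02, -2.99 and -1.22 (each FDR = 0.802).

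**Figure D3:**
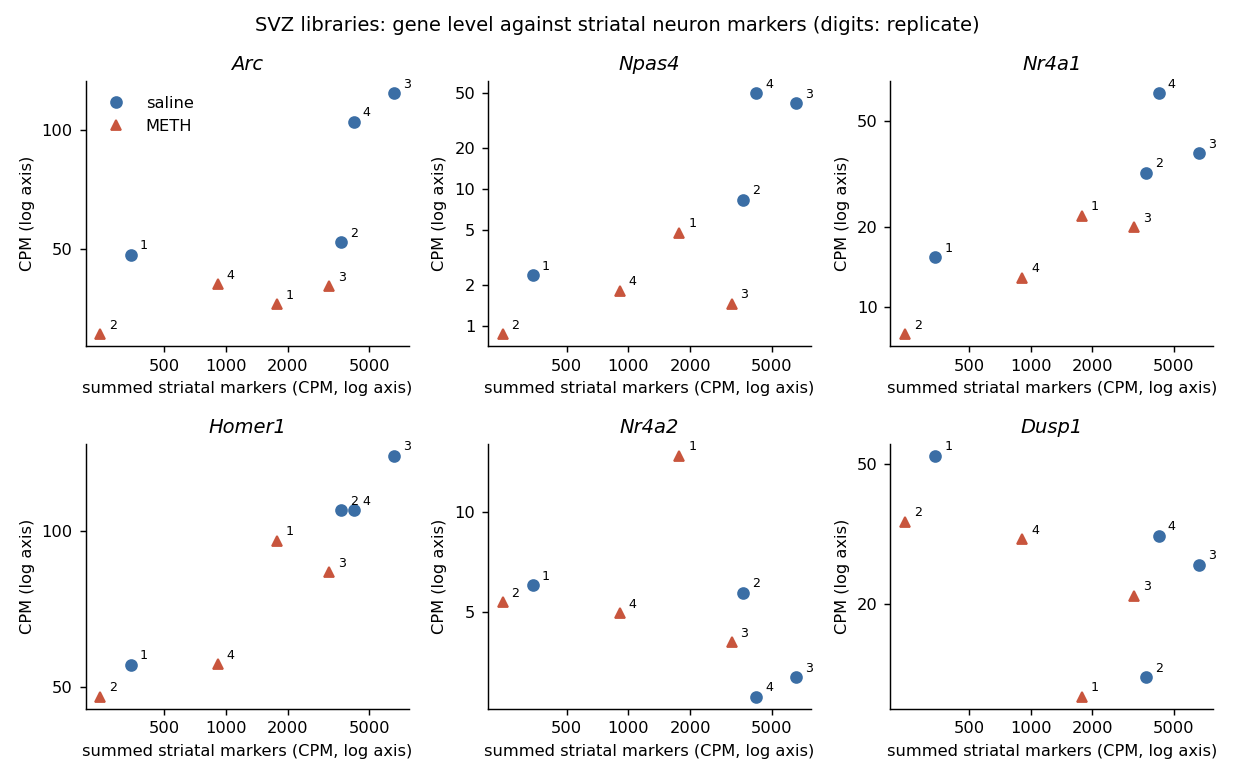
Level of Arc, Npas4, Nr4a1, Homer1, Nr4a2 and Dusp1 in the 8 SVZ libraries (CPM, log axis) against the summed level of 9 markers of striatal medium spiny neurons (CPM, log axis). Circles are saline and triangles METH, and digits give the replicate. Homer1 followed the marker sum over both treatments (r = 0.94), while Dusp1 did not (r = -0.53).

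In the NAc, a striatal target of midbrain dopamine neurons, 2 of the 9 genes had an unadjusted p under 0.05 (Npas4 and Nr4a2), both lower in METH, beside 1.01% of all genes in that direction. Npas4 was at 6.09, 5.15, 3.39 and 12.8 CPM in saline and at 2.90, 2.61, 2.52 and 5.14 CPM in METH. The groups overlapped through METH 4 (log2 fold change -1.04 ± 0.43, FDR = 1.0). Nr4a2 was at 11.8, 4.76, 12.0 and 46.0 CPM in saline and at 5.32, 4.13, 6.46 and 7.81 CPM in METH, with Sal 2 inside the METH range (log2 fold change -1.63 ± 0.63, FDR = 1.0).

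Neither value was stable to leaving out a library. The unadjusted p stayed under 0.05 in 4 of 8 fits for Npas4 and in 5 of 8 for Nr4a2. Without Sal 4, the log2 fold changes were -0.54 for Npas4 and -0.64 for Nr4a2, and neither had an unadjusted p under 0.05. Of the other 7 genes, 6 had a log2 fold change below 0, from -0.81 ± 0.56 for Nr4a1 to -0.09 ± 0.47 for Btg2, and Ier2 was at 0.11 ± 0.28. Arc was at 148, 24.2, 51.4 and 58.9 CPM in saline and at 69.9, 39.6, 18.2 and 64.0 CPM in METH (log2 fold change -0.53 ± 0.56), and its lowest value was in METH 3, the library with few striatal markers. All 9 striatal markers were also below 0 in the NAc (median log2 fold change -0.61, 0 of 9 at p under 0.05). Their part in the result was not tested. Without METH 3, Npas4 had a log2 fold change of -0.93 and Nr4a2 one of -1.68, and the unadjusted p stayed under 0.05 for Nr4a2 but not for Npas4. The file headers hold name parts that were read here as runs, although the sources used here do not say what they stand for. In the NAc, saline and METH libraries shared 1 such run, with 2 of each. With the run as a covariate the log2 fold change was -1.55 for Npas4 and -2.61 for Nr4a2. That fit rests on the libraries of the shared run (Sal 3, Sal 4, METH 1 and METH 2), and Sal 4 held the highest value of both genes.

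In the DG, 1 of the 9 genes, Dusp1, had an unadjusted p under 0.05 in METH, beside 6.52% of all genes with lower values. Dusp1 was at 25.7, 29.0, 10.0 and 30.8 CPM in saline and at 8.31, 18.8, 13.9 and 10.7 CPM in METH. All saline libraries but Sal 3 lay above the METH range (log2 fold change -0.87 ± 0.37, FDR = 0.386). The log2 fold change was -1.12 without Sal 3 and -0.69 without Sal 4, and the unadjusted p stayed under 0.05 in 2 of the 8 fits that left out a library.

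Nr4a3 had the opposite sign in the DG. It was at 108, 35.1, 9.28 and 51.6 CPM in saline and at 128, 77.8, 84.7 and 119 CPM in METH, with Sal 1 inside the METH range (log2 fold change 1.03 ± 0.59, FDR = 0.516). Without Sal 1 the log2 fold change was 1.68, with an unadjusted p under 0.05. Nr4a2 varied 42.7-fold among the saline libraries and 1.64-fold among the METH libraries of the DG, where it was at 29.3, 43.2, 37.4 and 47.9 CPM. Its log2 fold change of -0.92 ± 0.88 rested on Sal 1 (232 CPM) and was 0.67 without it. Arc (0.20), Btg2 (0.25), Homer1 (-0.13), Ier2 (-0.32), Nr4a1 (-0.45) and Npas4 (-0.82) all had log2 fold changes smaller than their SE.

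The DG libraries also differed in composition. All 9 striatal markers (median log2 fold change -2.09) and all 6 cortical layer markers (median -1.15) were below 0 in METH, and 4 of 5 dentate granule markers tested were above 0 (median 1.5). Striatal sums were 256 to 2050 CPM in saline and 182 to 471 CPM in METH, and granule sums 116 to 318 CPM and 106 to 561 CPM. Their part in the result was not tested. The DG values also moved with the 4 libraries of crossed numbers. Without these, 2 saline and 2 METH libraries remained and the log2 fold changes were -1.21 for Npas4, -0.75 for Dusp1, -0.32 for Ier2, -0.20 for Btg2, 0.06 for Homer1, 0.10 for Nr4a1, 0.87 for Arc, 1.26 for Nr4a2 and 1.71 for Nr4a3, so that the sign of Nr4a1, Nr4a2, Homer1 and Btg2 turned. The lowest FDR among the 9 was then 0.740. Run, as read from the headers, and treatment were also almost the same split in the DG. Sal 3 was the 1 saline library there that shared a run with METH libraries (METH 1 and 2). With the run as a covariate, a fit that rests on these 3, the log2 fold change was 3.45 for Nr4a3, 2.71 for Nr4a2 and 0.41 for Dusp1.

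In the CA, 0 of the 9 genes had an unadjusted p under 0.05. Arc was at 81.8, 58.4, 67.9 and 198 CPM in saline and at 243, 76.9, 107 and 135 CPM in METH (log2 fold change 0.47 ± 0.44, FDR = 0.813). Nr4a1 (0.30 ± 0.50), Nr4a2 (0.41 ± 0.46) and Nr4a3 (0.36 ± 0.20) also lay above 0, whereas Npas4 was at -0.60 ± 0.91. For 7 of the 9 genes, Nr4a3 and Btg2 aside, the highest saline value was in Sal 4. It held 29.9 CPM of Npas4 beside 0.802 to 6.86 CPM in the other saline libraries, 109 CPM of Nr4a1 beside 27.0 to 40.1 CPM, and 46.2 CPM of Dusp1 beside 7.34 to 14.4 CPM. Without Sal 4, the log2 fold change was 1.01 for Arc, with an unadjusted p under 0.05, and 1.04 for Npas4.

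Over the 4 regions together, the log2 fold change of Npas4 was below 0 in each region, and its mean METH effect was -1.50 ± 0.46 (log2, FDR = 0.501). It was the 1 gene of the 9 with an unadjusted p under 0.05 for the mean effect, beside 3.52% of all genes with lower values and 0.0% passing the call (DESeq2 called 1 gene of the genome, not among the 9). This value leaned on 1 library number. Leaving out any 1 of the 32 libraries kept it between -1.67 and -1.09, but the fit treats the libraries as independent. Without all 3 libraries of number 23, which held the highest saline Npas4 in the NAc, DG and CA, it was -0.75 (FDR = 0.616) and the unadjusted p was no longer under 0.05. Without any other number it lay between -1.73 and -1.36, with an unadjusted p under 0.05. In limma voom it was -1.02, and -1.03 with the library number as a random effect (FDR = 0.760 and 0.781), and neither had an unadjusted p under 0.05. Nr4a1 followed at -0.55 ± 0.28 (FDR = 0.661). The other 7 had mean effects between -0.36 (Nr4a2) and 0.26 (Nr4a3).

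Whether the METH effect differed among regions was tested by the interaction. None of the 9 genes passed (0.0% of 16151 genes, with 7.75% at an unadjusted p under 0.05 and 23 called by DESeq2). The lowest values among the 9 were FDR = 0.754 for Nr4a2 and FDR = 0.778 for Npas4, and none had an unadjusted p under 0.05. For the contrast of the METH effect in the DG against that in the CA, 0 of the 9 had p under 0.05, beside 12.9% of all genes, and 0.0124% of genes were called. A METH effect on Arc, Npas4 or Nr4a1 that differs between the SVZ and the other regions was therefore not shown.

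Part of the variation of these genes lay between libraries of the same group. Its share of the log2(CPM + 1) variation over the 32 libraries was 18.5% for Nr4a3 and 26.2% for Nr4a2, whose levels differed most between groups, 48.4% for Btg2 and 59.6% (Arc) to 78.6% (Homer1) for the other 6 genes. The members correlated with each other within groups. After each group mean was removed from log2(CPM + 1), 34 of the 36 pairs of genes had a Pearson r above 0 over the 32 libraries (median 0.44). Arc and Nr4a1 were the most alike (r = 0.91), followed by Nr4a1 and Homer1 (0.81) and Arc and Homer1 (0.73). Nr4a2 and Nr4a3 were nearest to each other (0.58). Ier2 was most like Dusp1 (0.55), and Nr4a3 and Dusp1 had the lowest value (-0.16). These correlations share library composition and depth and are descriptions.

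**Figure D4:**
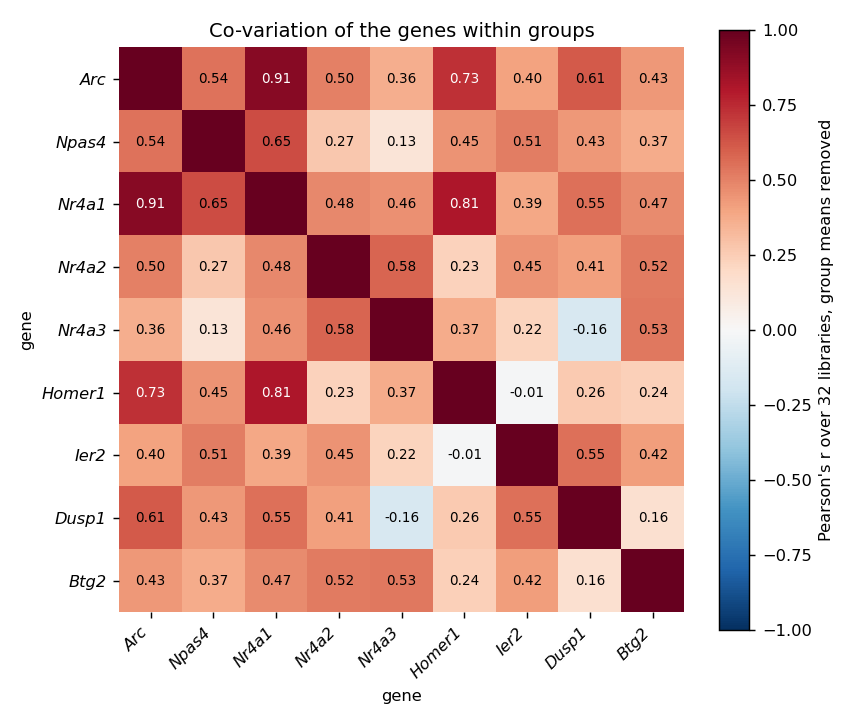
Pearson's r between each pair of genes over 32 libraries, from log2(CPM + 1) with the 8 group means removed, on a scale from blue (-1) to red (1). Arc, Nr4a1 and Homer1 form the block of highest values (0.73 to 0.91), while Nr4a3 and Dusp1 (-0.16) and Homer1 and Ier2 (-0.01) are the pairs below 0.

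The 5 genes outside the set whose within-group pattern was most like the mean profile of the 9, of 14441 genes with a mean of at least 1 CPM, were Fhl2 (r = 0.88), Nck2 (0.87), Ext1 (0.86), Egr1 (0.85) and AABR07058287.1 (0.83). The median r over all these genes was -0.02, and 5% of them lay above 0.50. Egr1, an immediate early transcription factor, ranged from 22.2 to 328 CPM and was the 1 gene of the 5 that is on a list of activity-induced genes used here. Fhl2 is a LIM domain protein, Nck2 an adaptor protein and Ext1 an enzyme of heparan sulfate synthesis. Of the marker lists, the profile had its highest r with cortical layer neurons (0.68) and its lowest with microglia (-0.75). The part of tissue composition in the shared profile was not tested.

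The libraries that carry the same number in the headers were also compared, a comparison chosen after the values were seen. Between the DG and CA, which share 8 numbers, log2 levels had a median Pearson r of 0.63 over the 9 genes, from -0.07 for Btg2 to 0.78 for Npas4, beside a median of 0.08 over 14449 genes. Spearman's rho was 0.98 for Nr4a1, 0.81 for Ier2, 0.74 for Dusp1 and 0.60 for Npas4. Number 23 had the highest saline Npas4 in the NAc, DG and CA (12.8, 18.1 and 29.9 CPM), and number 20 the highest Nr4a2 in the DG and CA (232 and 196 CPM), although it is labelled saline in the DG and METH in the CA. By the replicate number of the labels, the median r between the DG and CA was 0.01. Between the NAc and DG, the median was 0.03 by library number, beside 0.11 over all genes, and 0.25 by label. Between the NAc and CA, where number and label agree, the median was 0.27 (-0.09 to 0.76), beside 0.17 over all genes. For the DG and CA, the 2 numbers farthest from the DG median were also left out. The r was then 0.67 for Nr4a1, 0.52 for Npas4, 0.47 for Ier2 and 0.42 for Dusp1, but 0.19 for Nr4a2 and 0.12 for Arc. Numbers 20, 21, 23, 24 and 25 also had the same run, as read from the headers, in the DG and CA. Number and run therefore cannot be told apart for these. What the numbers stand for is not given in the sources used here.

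**Figure D5:**
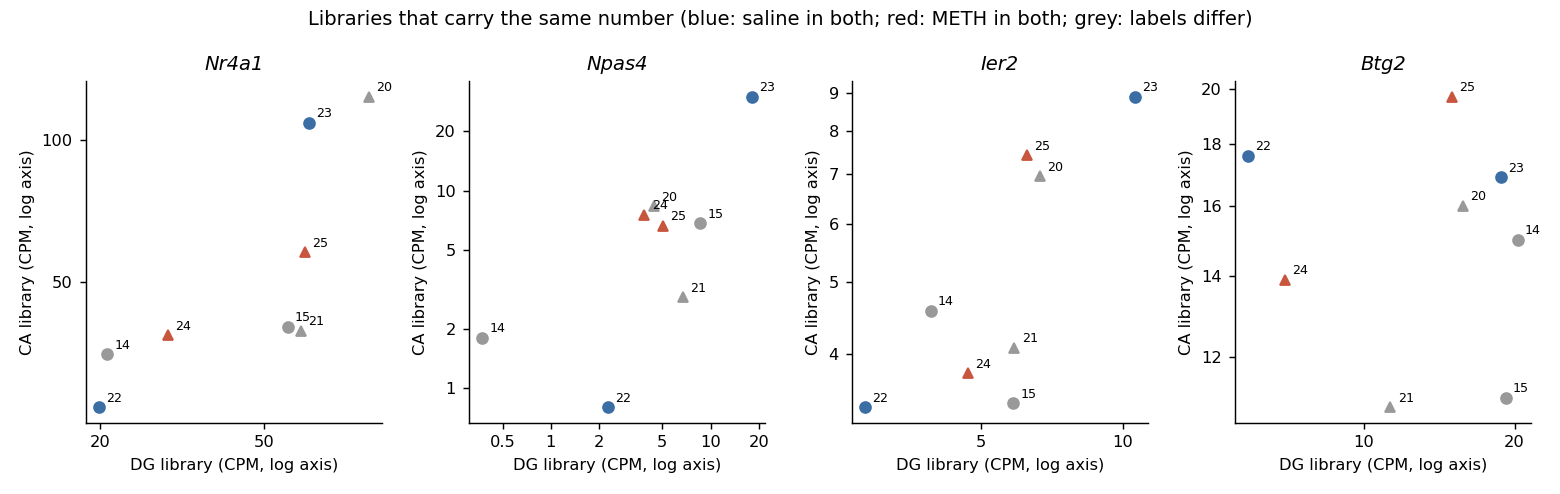
Level of Nr4a1, Npas4, Ier2 and Btg2 in the CA library (CPM, log axis) against the DG library (CPM, log axis) with the same header number, printed beside each of the 8 points. Blue marks numbers labelled saline in both regions, red METH in both, and grey numbers whose labels differ, and circles and triangles give the CA label (saline and METH). Nr4a1, Npas4 and Ier2 are high together in numbers 20 or 23, while Btg2 shows no such order (r = -0.07).

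The surrounding pathway was followed in 5 lists with 82 genes in the files, of which 81 were tested in each region. At an FDR under 0.01, 0 of 81 passed in every region. At an unadjusted p under 0.05, 1 was higher and 1 lower in the NAc, beside 2.41% and 1.01% of all genes. In the DG 4 were higher and 9 lower, beside 6.24% and 6.52%. In the CA 8 were higher and 5 lower, beside 4.36% and 2.8%, and in the SVZ 1 was higher and 7 lower, beside 1.17% and 1.4%.

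The other rapid primary response genes, such as Fos, Egr1 and Junb, are induced beside the 9. Of 26 tested, 4 had lower values at an unadjusted p under 0.05 and 0 higher in the SVZ (beside 1.4% and 1.17% of all genes, median log2 fold change -0.44, beside 0.02 over all genes), and 5 lower and 0 higher in the DG (beside 6.52% and 6.24%, median -0.29, beside -0.01). In the CA 5 were higher and 1 lower (beside 4.36% and 2.8%, median 0.29, beside 0.00), and in the NAc 1 was higher (beside 2.41%, median -0.16, beside 0.03). The CA and DG medians therefore had opposite signs. For the contrast of the METH effect in the DG against that in the CA, 0 of the 26 had an FDR under 0.01. At an unadjusted p under 0.05, 3 were lower and 0 higher, beside 7.04% and 5.84% of all genes (median -0.41, beside -0.03). The 12 delayed and secondary genes, such as Bdnf, had medians between 0.15 and 0.25 in the 4 regions. The 14 upstream regulators had medians between -0.31 in the SVZ and -0.01 in the DG, the 17 partners between -0.18 in the SVZ and 0.05 in the CA, and the 12 relatives between -0.25 in the SVZ and 0.05 in the CA.

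By rule, the 2 genes of these lists with the largest change and separate groups were named in each region, and the NAc had none. In the DG, Homer3, a scaffold protein related to Homer1, was at 9.97 to 16.3 CPM in saline and 29.6 to 53.4 CPM in METH (log2 fold change 1.74 ± 0.23, FDR = 0.116), and it passed the call in DESeq2 (FDR = 1.5e-08) and with 1, 2 or 4 RUVr factors. Sik1, a kinase induced by cAMP, was at 19.3 to 38.6 CPM in saline and 13.2 to 18.2 CPM in METH (log2 fold change -0.85 ± 0.25, FDR = 0.246). In the CA, the transcription factors Klf4 (0.91 ± 0.23, FDR = 0.667) and Csrnp1 (0.46 ± 0.14, FDR = 0.667) were higher in METH. In the SVZ, Trib1, a pseudokinase (-0.42 ± 0.16), and Mef2a, an activity-dependent transcription factor (-0.26 ± 0.09), were lower, both with FDR = 0.980.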

How the data were processed

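Tissue RNA from 32 samples was depleted of rRNA and sequenced by the study. According to the submitters' processing notes and file headers, the authors trimmed reads with cutadapt 2.7, checked them with FastQC 0.11.4, aligned them to rn6 with STAR 2.5.2b and counted fragments of mapping quality 10 or more per gene with featureCounts 1.6.3, without strand. The deposited values are raw counts per gene over the Ensembl 95 annotation named in the headers. The series matrix was not used. Samples were grouped by region and treatment from the labels. Total counts ranged from 11094002 to 21869773, and the p-values and SEs cover the spread between libraries at this depth. No replicate pair had counts that agreed within sampling noise.

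Genes were filtered with filterByExpr, scaled by upper quartiles and tested with edgeR 4.0.16 (quasi-likelihood test, Benjamini-Hochberg adjustment over all genes tested, R 4.3.3), in 1 fit per region for METH, 1 fit of the 16 saline samples for regions and 1 fit of all 32 for the mean effect and interactions. Fold changes are log2, and SE was taken from the fold change and the F statistic. Calls needed an FDR under 0.01 and a fold change over 1.5 (METH) or 2 (regions). DESeq2 1.42.0, limma 3.58.1 (voom), TMM, other filters, RUVr factors, a replicate block, the run read from the headers as a covariate and leaving out libraries were alternatives. The headers of CA Sal 1 and CA Sal 2 hold the word merged, which was treated as a run of its own. The script was tested on simulated data. The members and gene lists were chosen with earlier results of these data known. Named genes were the 9 members, the 2 pathway genes per region with the largest fold change among those whose groups do not overlap, the 5 genes most like the members' mean profile, and markers that check a region.

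Same-numbered METH and saline samples did not deviate together in every pair of any region (r from -0.78 to 0.42). Among saline regions, same-numbered NAc and CA samples deviated together weakly (r 0.11 to 0.25 in 4 of 4 pairs). The labels state no pairing, and values this weak do not establish one.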

Additional observations from a re-analysis of the deposited data

Results flagged for a closer look

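In 10 of the 72 groups of 4 libraries, a single library lay far from the other 3 (its gap to the nearest, over the group's range, exceeded Dixon's critical value). For normally distributed values, chance would flag about 1 in 20 such groups. The rule was applied to CPM without logarithms, so that rate may not hold here and the number of flags is not compared with it. Groups of the same libraries are also not independent. In the CA, Sal 4 stood high for Arc (198 CPM, next 81.8 CPM), Nr4a1 (109 CPM, next 40.1 CPM) and Homer1 (165 CPM, next 105 CPM). CA METH 1 stood high for Nr4a2 (196 CPM, next 72 CPM) and Homer1 (150 CPM, next 108 CPM). DG Sal 1 stood high for Nr4a2 (232 CPM, next 40.1 CPM). SVZ METH 1 stood high for Nr4a2 (14.7 CPM, next 5.36 CPM) and Nr4a3 (34.7 CPM, next 6.15 CPM). NAc METH 4 stood high for Npas4 (5.14 CPM, next 2.90 CPM). NAc METH 3, the library with few striatal markers, stood low for Homer1 (32.9 CPM, next 124 CPM).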

How the results depend on the processing

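Of 1588 values of single genes under an alternative, 1459 kept their direction and side of the threshold, 20 passed it only under the alternative and 109 changed sign. The cause of each change given here was not tested. With 4 libraries per group, 1 library could turn the sign of METH values near 0. Alternatives that left out DG libraries of crossed numbers or the 3 SVZ libraries of high thalamic sums, that summed SVZ METH libraries of the same number, that used the header word EXTRA or that treated the library number as a unit, were chosen after seeing the data. The run covariate was not run for the SVZ, whose labels name no run. With 4 RUVr factors Npas4 in the SVZ passed the METH call (-3.36), the only member to do so under any alternative.

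Counts of called genes depended on the tool. DESeq2 called 3, 175, 10 and 2 genes for METH in the NAc, DG, CA and SVZ, 1 for the mean effect, 64 for the DG minus CA effect and 23 for any difference between regions. In saline it called 11 (NAc vs DG), 531 (NAc vs CA), 42 (NAc vs SVZ), 111 (DG vs SVZ) and 781 (CA vs SVZ) genes. One fit of all 32 samples called 344 (NAc vs CA), 6 (NAc vs SVZ), 7 (DG vs SVZ) and 592 (CA vs SVZ). With 1 RUVr factor, 35 genes passed in the DG and 5 for DG minus CA. With 2 factors, 166 passed in the DG, 20 in the SVZ, 101 for DG minus CA and 80 for any difference. With 4 factors, 1 passed in the NAc, 450 in the DG, 244 in the SVZ, 21 for the mean effect, 398 for DG minus CA and 467 for any difference. An FDR under 0.05 with no fold limit gave 1 gene in the DG. TMM gave 0 for DG vs SVZ and 0 for DG minus CA, and no filter gave 0 for both and 44 for CA vs SVZ. Without the 2 saline DG libraries of crossed numbers, 13 (NAc vs CA), 0 (DG vs SVZ) and 264 (CA vs SVZ) genes passed. Without all 4, or without the 3 SVZ libraries, 0 passed for DG minus CA. Leaving out 1 library gave 0 to 35 genes for NAc vs DG, 0 to 209 for NAc vs CA, 0 to 70 for DG vs SVZ and 0 to 386 for CA vs SVZ, each highest without DG Sal 3, 0 to 17 for DG minus CA (highest without CA Sal 4) and 0 to 1 for any difference (without DG Sal 1).

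With the replicate number as a block, 0 genes passed for DG vs SVZ, 0 for CA vs SVZ and 0 for DG minus CA. For single genes the block gave Nr4a2 0.22 in the DG, Npas4 0.29 in the CA, Nr4a3 -0.50 in the SVZ, Btg2 0.01 for the mean effect and Nr4a2 -0.49 for saline DG vs CA, and it changed no other call. The samples share only a number, and the r of same-numbered saline NAc and CA samples was weak (0.11 to 0.25).

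These log2 values had the opposite sign under other alternatives. RUVr with 1, 2 and 4 factors gave Btg2 in the CA 0.00, 0.01 and 0.01, and Nr4a3 in the SVZ -0.22, -0.19 and -0.26. The run covariate gave 0.00 for Arc, 0.12 for Homer1 and -0.37 for Ier2 in the NAc. In the DG it gave 0.95 for Npas4, 0.94 for Nr4a1, 2.71 for Nr4a2, 0.30 for Homer1, 0.75 for Ier2 and 0.41 for Dusp1, and in the CA -0.11 for Homer1, -0.05 for Ier2 and -0.08 for Dusp1. Without the 2 saline DG libraries, Nr4a2 was 0.08 (NAc vs DG) and -1.98 (DG vs CA). Without the 4 DG libraries, DG values were 0.10 for Nr4a1, 1.26 for Nr4a2, 0.06 for Homer1 and -0.20 for Btg2, and the mean effect 0.19 for Nr4a2. Without the 3 SVZ libraries, SVZ values were 0.21 for Ier2 and 0.16 for Btg2, and mean effects 0.03 and 0.07. Within the SVZ libraries with the header word EXTRA, Nr4a2 was -0.18, Nr4a3 -1.43 and Dusp1 0.00, within those without it Ier2 was 0.09 and Btg2 0.13, and with the word as a covariate Nr4a3 was -0.24. Without all libraries of a number, mean effects were -0.02 for Nr4a3 (1669), 0.01 (21) and 0.16 (23) for Ier2, and 0.00 (20), 0.04 (1672), 0.06 (1670), 0.07 (21 and 24) and 0.19 (23) for Btg2. In limma voom Ier2 was 0.02, and 0.01 with the library number as a random effect.

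Leaving out each library in turn turned the sign of these values. In the NAc the ranges were -0.81 to 0.10 for Arc, -0.47 to 0.02 for Homer1, -0.13 to 0.26 for Ier2, -0.45 to 0.09 for Dusp1 and -0.44 to 0.38 for Btg2. In the DG they were -0.13 to 0.68 for Arc, -1.34 to 0.05 for Npas4, -1.31 to 0.67 for Nr4a2, -0.25 to 0.01 for Homer1 and -0.57 to 0.06 for Ier2. In the CA they were -0.99 to 1.04 for Npas4, -0.21 to 0.93 for Nr4a1, -0.20 to 0.70 for Nr4a2, -0.11 to 0.26 for Homer1, -0.04 to 0.54 for Ier2, -0.55 to 0.99 for Dusp1 and -0.16 to 0.12 for Btg2. In the SVZ they were -1.17 to 0.43 for Nr4a3, -0.17 to 0.05 for Ier2, -0.59 to 0.06 for Dusp1 and -0.63 to 0.05 for Btg2. Saline Nr4a2 (DG vs CA) ranged from -1.51 to 0.49, and the mean effect from -0.51 to 0.04 for Nr4a2, -0.06 to 0.42 for Nr4a3, -0.10 to 0.06 for Ier2 and -0.12 to 0.11 for Btg2.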
